A study of Rattus norvegicus with 84 samples.

Results

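Klf2, Klf4, Klf6, Klf9 and Klf10 are Kruppel-like factors, transcription factors that bind GC-rich and CACCC elements of DNA through a zinc finger domain at their C terminus. They were chosen as the probes whose symbol in the platform's annotation is one of these names, which gave 5 probes, 1 for each gene, among 22523 on the array, or 5 of 13337 genes named there. Their RNA was measured on 84 Illumina bead arrays of hippocampal tissue from 28 male F344xBN rats aged 7 months, with arrays labelled CA1, CA3 and DG (dentate gyrus) for each of 4 groups of 7 rats. Rats received an injection of SAHA, an inhibitor of histone deacetylases, at 50 mg/kg, or of its solvent DMSO (vehicle), and all were killed 90 min later. Home cage rats were only injected. RPC (redundant place-cue) rats swam a single session in the water maze, with 17 trials that began 10 min after the injection and then a probe trial of 60 s. RPC rats had also been trained in the maze on 8 days, with 3 trials a day, ending a week earlier, and home cage rats had not. The comparison of RPC with home cage thus holds the session and the earlier training together. Every rat was injected, so no group shows the level without an injection.

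In many cell types several Kruppel-like factors are switched on quickly by growth factors, stress or electrical activity, and some repress their targets by recruiting corepressors that carry histone deacetylases. Klf2 and Klf4 are best known from the lining of blood vessels, where blood flow induces both through the kinase ERK5 and the MEF2 factors. In neurons of rodents, Klf4 and Klf9 restrain axon growth while Klf6 favours it, Klf9 is induced by glucocorticoid and thyroid hormones, and Klf10 is known as a gene induced by TGF-beta.

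The check of the region labels came first. The level of Wfs1, which marks pyramidal neurons of CA1, was 10.65 ± 0.29 on the log2 scale (mean ± SD, n = 28) under the label DG and 6.86 ± 0.77 under the label CA1. Prox1, the transcription factor of dentate granule cells, passed detection on 4 of 28 arrays under the label DG and on 28 of 28 under the label CA1. These markers go against the labels CA1 and DG, so the regions are named here by their labels only. Of the 84 arrays, 10 correlated poorly with the rest of their region: 3 labelled CA1, and 7 labelled CA3, which all came from RPC rats. The array mean signal ran from 428.2 to 904.8, and 35.4% to 50.0% of probes were detected (detection p-value under 0.01). Over all probes tested, the maze comparison called 639 of 9919 probes in labelled CA1 with vehicle, of which 38.2% were higher. Scaling by the median in place of quantile normalization left 124 calls there, 99.2% of them higher. The share higher also moved in labelled CA1 with SAHA (70.3% against 93.8%) and in labelled DG with vehicle (91.4% against 80%). Median scaling moved the median maze difference of all probes by more than 0.1 in labelled CA3 with SAHA, from 0.0068 to 0.14. With vehicle in that region it went from 0.042 to 0.11. The maze calls of Klf2 and Klf4 kept their direction and their call under both scalings and on the authors' z-scores (values standardized within each array).

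The first question was whether the members differed between rats after the maze session and rats from the home cage. Klf2 was higher after the session in labelled DG under both injections and in labelled CA1 with SAHA, and Klf4 was higher in labelled DG with SAHA. No test of Klf6, Klf9 or Klf10 passed. With vehicle, 1 of 15 tests (5 members in 3 regions) was called at a limma adjusted p under 0.05, and 6 had an unadjusted p under that limit. Over all probes tested, 2362 of 9919, 2100 of 10594 and 917 of 10858 had such an unadjusted p in labelled CA1, CA3 and DG. The background of adjusted calls in the same order of regions was 6.44%, 0.0189% and 0.322%, and 2.46%, 0.0189% and 0.295% for higher levels alone. With SAHA, 3 of 15 tests were called. The background was 2.51%, 0.0283% and 1.45% of all probes in the same regions, or 1.76%, 0.0283% and 1.21% for higher levels alone. An unadjusted p under the limit was held by 6 of the 15, beside 1535 of 9919, 418 of 10594 and 1510 of 10858 probes. In labelled CA1 the number of calls over all probes was thus far larger than in labelled CA3.

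Klf2 is a factor that keeps endothelial cells and T cells quiescent. Its probe was detected on 83 of 84 arrays, with a deposited signal from 95 to 835. In labelled DG, vehicle home cage rats had normalized log2 levels from 7.97 to 8.36 (median 8.17), and vehicle RPC rats from 8.48 to 8.76 (median 8.67). The groups did not overlap, and the difference was 0.51 ± 0.09 (SE, n = 7 per group, adjusted p = 0.00154), a 1.43-fold rise. SAHA home cage rats ran from 7.63 to 8.20 (median 8.06), and SAHA RPC rats from 8.67 to 9.19 (median 8.86). Here too every RPC array lay above every home cage array, by 0.88 ± 0.09 on average (adjusted p = 3.53e-07), a 1.84-fold rise. Over all probes tested in labelled DG, RPC arrays lay wholly above home cage arrays for 0.35% with vehicle and 0.442% with SAHA. No member did so in labelled CA1 (0.343% and 0.575% of all probes) or labelled CA3 (0.104% and 0.208%). In pieces of tissue, a larger share of a cell type and more RNA per cell cannot be told apart. Both calls were kept in each of 28 fits that left out 1 array of the region. A single fit of all 84 arrays, in which the regions share 1 spread and same-numbered arrays of a group were blocked as if from 1 rat (which the labels do not state), ended the vehicle call (adjusted p = 0.9999) and kept the SAHA call.

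In labelled CA1, Klf2 ran from 7.67 to 8.54 (median 8.22) in SAHA home cage rats and from 8.41 to 9.15 (median 8.88) in SAHA RPC rats. Of the RPC arrays, 6 of 7 lay above every home cage array, and the rise of 0.70 ± 0.15 was called (adjusted p = 0.0102, 1.63-fold). The 84-array fit with that assumed block ended this call (adjusted p = 0.0642). With vehicle, the home cage arrays ran from 7.92 to 8.70 (median 8.34) and the RPC arrays from 8.23 to 9.08 (median 8.76). These groups overlapped, with 4 of 7 RPC arrays above every home cage array, and the difference of 0.41 ± 0.15 missed the threshold (adjusted p = 0.0876, 95% interval from 0.10 to 0.72). Without vehicle RPC replicate 4 it was 0.50 and passed (adjusted p = 0.048).

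In labelled CA3, vehicle home cage rats had Klf2 levels from 7.72 to 8.42 (median 8.22), and vehicle RPC rats from 5.75 to 8.77 (median 8.39). The lowest value belonged to replicate 6, the array with the fewest detected probes, where Klf2 was not detected. The other 6 arrays of the group lay between 7.94 and 8.77. The difference was -0.10 ± 0.29 over all arrays (adjusted p = 0.837), and 0.28 ± 0.15 without replicate 6 (adjusted p = 0.513). With SAHA the groups overlapped, from 7.99 to 8.49 in the home cage and from 8.09 to 8.87 after the session, a difference of 0.35 ± 0.29 (adjusted p = 0.999). Replicate 6 of the vehicle RPC rats is in neither SAHA group but enters the spread of the region. Without it the SAHA difference stood at 0.35 ± 0.15 (adjusted p = 0.613).

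**Figure D1:**
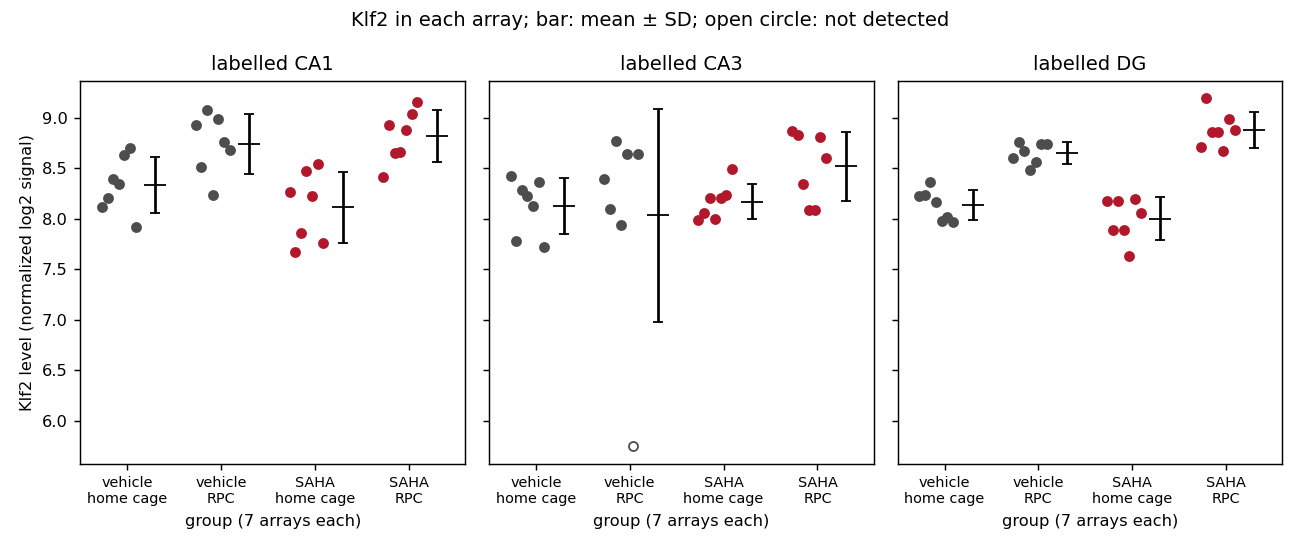
Normalized log2 level of Klf2 (vertical axis) in each array of the 4 groups (horizontal axis) in the regions labelled CA1, CA3 and DG; bars give the mean ± SD of 7 arrays, and the open circle marks the array where Klf2 was not detected. In labelled DG the RPC arrays, from 8.48 upwards, all lie above the home cage arrays, and in labelled CA3 a single vehicle RPC array lies at 5.75.

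Klf4, one of the factors used to turn somatic cells into pluripotent ones, was detected on all 84 arrays, with a signal of up to 1127. In labelled DG it ran from 7.68 to 8.78 (median 8.25) in SAHA home cage rats and from 8.78 to 9.68 (median 9.01) in SAHA RPC rats. Of the RPC arrays, 6 of 7 lay above every home cage array, and the rise was 0.82 ± 0.15 (adjusted p = 0.00202, 1.76-fold). The call was kept in all 28 fits that left out 1 array. With vehicle in labelled DG, the home cage arrays ran from 7.97 to 8.42 (median 8.25) and the RPC arrays from 8.33 to 9.24 (median 8.74). Of these, 5 of 7 lay above every home cage array, but the difference of 0.52 ± 0.15 did not pass (adjusted p = 0.199).

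In labelled CA3, Klf4 ran from 7.84 to 8.60 (median 8.36) in vehicle home cage rats and from 8.59 to 9.24 (median 8.93) in vehicle RPC rats, with 5 of 7 RPC arrays above every home cage array. With SAHA it ran from 8.11 to 8.43 (median 8.33) in the home cage and from 8.25 to 9.30 (median 8.92) after the session, with 6 of 7 above. The differences were 0.61 ± 0.13 (adjusted p = 0.247) and 0.53 ± 0.13 (adjusted p = 0.566). Neither passed in a region where fewer than 0.03% of probes were called, though their unadjusted p-values were 0.000105 and 0.00054. The 4 highest vehicle RPC values, from 8.93 to 9.24, belonged to replicates 3, 4, 6 and 7, which correlated poorly with their region. The other vehicle RPC arrays ran from 8.59 to 8.80. Among SAHA RPC rats the poorly correlated replicates 1, 4 and 6 stood at 8.92, 8.97 and 9.30, and the others ran from 8.25 to 8.99. The part of these arrays in the 2 differences was not tested. In labelled CA1, Klf4 ran from 7.31 to 8.38 (median 7.39) in vehicle home cage rats and from 7.46 to 8.59 (median 7.72) in vehicle RPC rats. With SAHA it ran from 7.22 to 7.78 (median 7.30) in the home cage and from 7.50 to 8.73 (median 8.01) after the session. The SAHA groups differed by 0.63 ± 0.18 with 6 of 7 RPC arrays above every home cage array, just beyond the threshold (adjusted p = 0.0534), and the vehicle groups by 0.27 ± 0.18 with 1 of 7 above (adjusted p = 0.376). The SAHA difference passed in 4 of the 28 fits that left out 1 array, those without SAHA home cage replicate 5 (adjusted p = 0.0376), SAHA RPC replicate 3 (0.0335), vehicle home cage replicate 6 (0.0293) or vehicle RPC replicate 1 (0.0274).

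**Figure D2:**
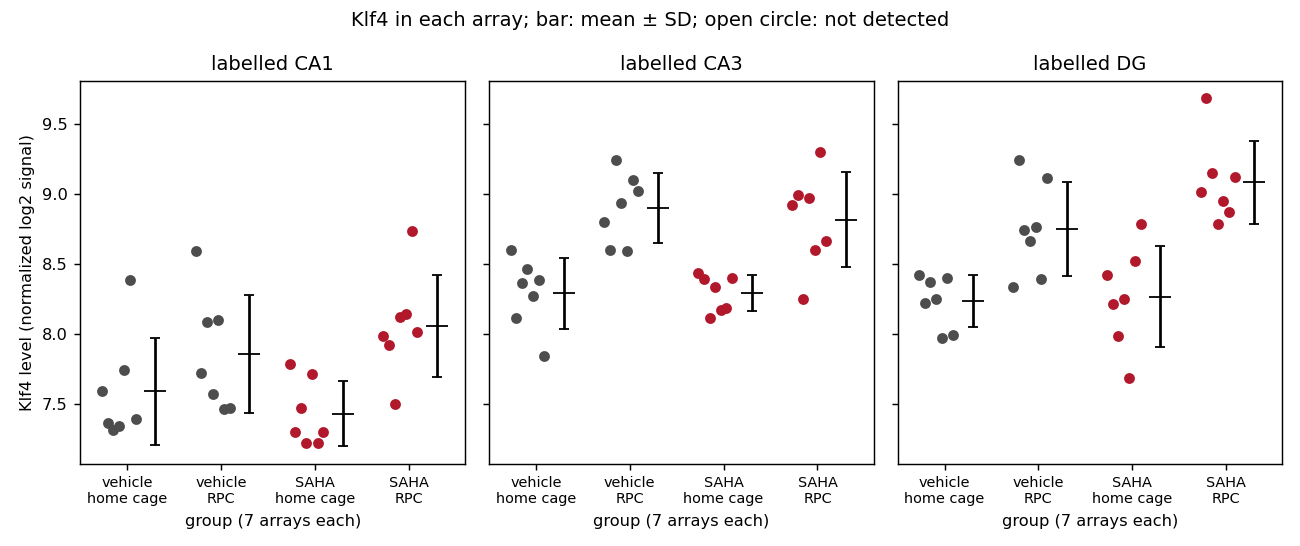
Normalized log2 level of Klf4 (vertical axis) in each array of the 4 groups (horizontal axis) in the regions labelled CA1, CA3 and DG, with the mean ± SD of 7 arrays as bars. Levels in labelled CA1 home cage rats start at 7.22, and the highest value, 9.68, belongs to a SAHA RPC array of labelled DG.

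Averaging the maze comparison over both injections, a contrast chosen after the data had been seen, compared 14 RPC with 14 home cage arrays in each region. Klf4 was then called in all 3 regions, by 0.45 ± 0.13 under the label CA1 (adjusted p = 0.0179), by 0.57 ± 0.09 under CA3 (adjusted p = 0.00582) and by 0.67 ± 0.10 under DG (adjusted p = 0.00017). Klf2 was called in labelled CA1 (0.56 ± 0.11, adjusted p = 0.00111) and labelled DG (0.70 ± 0.06, adjusted p = 4.4e-09), but not in labelled CA3 (0.13 ± 0.21, adjusted p = 0.719). Of all probes tested, 13.7%, 0.123% and 4.05% were called in the regions labelled CA1, CA3 and DG. Without the 10 poorly correlated arrays the rise of Klf4 in labelled CA3 was 0.36 ± 0.09 and missed the threshold (adjusted p = 0.121), while the other 4 calls held. All 7 of the arrays left out in labelled CA3 were RPC arrays, and their part in the larger value was not tested. Without vehicle RPC replicate 6 alone, Klf4 stayed called in labelled CA3 (0.55 ± 0.09, adjusted p = 0.00524) and Klf2 had a difference of 0.32 ± 0.11 that did not pass (adjusted p = 0.179).

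Klf6, a factor also described as a tumour suppressor, was detected on all 84 arrays with a signal from 340 to 952. Its largest maze differences were a lower level in labelled CA1 with SAHA and a higher one of the same size in labelled DG with vehicle. In labelled CA1 the home cage arrays ran from 8.85 to 9.32 (median 9.08) and the RPC arrays from 8.67 to 9.02 (median 8.87). These overlapped, and the difference of -0.21 ± 0.08 did not pass (adjusted p = 0.157). In labelled DG with vehicle the difference was 0.21 ± 0.10 (adjusted p = 0.547).

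Klf9, a glucocorticoid target, had a signal from 4729 to 10386 and was detected on all 84 arrays. In labelled CA1 with vehicle, it ran from 12.61 to 13.11 (median 12.75) in the home cage and from 12.76 to 13.36 (median 13.10) after the session. The difference was 0.24 ± 0.09 (adjusted p = 0.0958), and it passed without vehicle RPC replicate 3 (0.30, adjusted p = 0.0411). With SAHA in the same region it was -0.05 ± 0.09 (adjusted p = 0.848). In labelled DG the differences were 0.14 ± 0.07 with vehicle and 0.12 ± 0.07 with SAHA, neither past the threshold.

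Klf10, which acts in the response to TGF-beta, was detected on all 84 arrays with a signal from 245 to 760. Its maze differences lay between -0.17 (labelled CA1 with vehicle, adjusted p = 0.358) and 0.10 (labelled CA1 with SAHA, adjusted p = 0.74). The interval of the first ran from -0.39 to 0.06, and without vehicle home cage replicate 1, which stood highest at 9.43, the difference was -0.041. All 6 of its maze comparisons overlapped and none had an unadjusted p under 0.05.

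**Figure D3:**
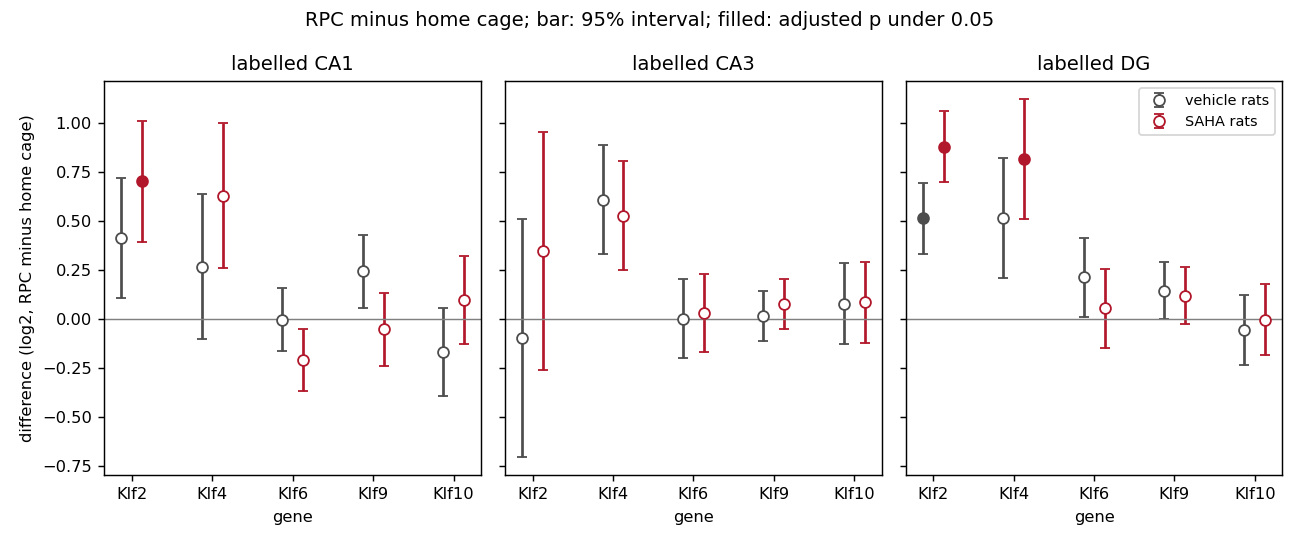
Difference RPC minus home cage on the log2 scale (vertical axis) for each member (horizontal axis) in the regions labelled CA1, CA3 and DG, in vehicle and in SAHA rats; bars give 95% intervals, and filled points have a limma adjusted p under 0.05. The 4 filled points are Klf2 in labelled DG at 0.51 and 0.88, Klf2 in labelled CA1 at 0.70 and Klf4 in labelled DG at 0.82.

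Whether these differences themselves varied among the 3 regions was asked with F tests over all 84 arrays. None of 20 tests (5 members, 4 effects) passed by limma and 1 had an unadjusted p under 0.05. That was Klf9 for the drug effect in RPC rats, where 811 of 11403 probes were under this limit. For the other effects it was 195 (drug, home cage rats), 3216 (maze, vehicle) and 903 (maze, SAHA) of the 11403. For the maze effect on Klf2 the adjusted p was 0.228 with vehicle and 0.845 with SAHA, and for Klf4 it was 0.482 and 0.991. The spread in both Klf2 tests takes in vehicle RPC replicate 6 of labelled CA3, where Klf2 was not detected. That array also enters the vehicle effect of labelled CA3, which was -0.10 with it and 0.28 without it. Over all probes, 5.52% passed for the maze effect with vehicle and 0.0438% with SAHA. A call of Klf2 or Klf4 in one region and a miss in another is therefore not shown to be a difference between regions.

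The second question was whether SAHA moved the members, with or without the maze session. None of 15 tests passed by limma in home cage rats, and 2 had an unadjusted p under 0.05. Over all probes, 710 of 9919, 52 of 10594 and 702 of 10858 were under that limit in labelled CA1, CA3 and DG. None of 15 passed in RPC rats, and 4 had an unadjusted p under 0.05. There 1049 of 9919, 538 of 10594 and 689 of 10858 probes were under it. Few probes of any kind were called for the drug: 0.0101% and 0.0605% in labelled CA1 (home cage, then RPC rats), 0.00944% and 0% in labelled CA3, and 0.0276% and 0.0829% in labelled DG.

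Klf2 and Klf4 were higher with SAHA than with vehicle among RPC rats of labelled DG without passing the test. Klf2 differed by 0.23 ± 0.09 there, with 7 of 7 SAHA arrays above the vehicle mean and 5 of 7 above every vehicle array (unadjusted p = 0.0134, adjusted p = 0.566). Klf4 differed by 0.33 ± 0.15, with 7 of 7 above the vehicle mean (unadjusted p = 0.0321, adjusted p = 0.723). Such array counts for the drug, here and for the members below, have no share of all probes beside them. They are given as a description only. In home cage rats of labelled DG the drug differences were -0.13 ± 0.09 for Klf2 and 0.03 ± 0.15 for Klf4, with 95% intervals from -0.32 to 0.05 and from -0.27 to 0.34. The widest drug difference, that of Klf2 in RPC rats of labelled CA3 (0.48 ± 0.29, adjusted p = 0.642), was 0.10 ± 0.15 without vehicle RPC replicate 6. A drug effect on Klf2 in home cage rats of labelled DG as large as its maze rise lay outside its interval.

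Klf9 lay lower with SAHA among RPC rats in labelled CA1 and labelled DG. In labelled CA1 the SAHA arrays ran from 12.64 to 13.07 (median 12.75) against 12.76 to 13.36 with vehicle. The difference was -0.26 ± 0.09, with 7 of 7 SAHA arrays under the vehicle mean (unadjusted p = 0.00725, adjusted p = 0.27). In labelled DG it was -0.17 ± 0.07, again with 7 of 7 under the vehicle mean (adjusted p = 0.65), and in labelled CA3 it was 0.03 ± 0.06. Klf6 ran the other way in home cage rats of labelled DG (0.24 ± 0.10, adjusted p = 0.667), with 7 of 7 SAHA arrays above the vehicle mean. Klf10 was lower with SAHA in home cage rats of labelled CA1 (-0.27 ± 0.11, adjusted p = 0.666), where the vehicle arrays ran from 8.30 to 9.43 and all 7 SAHA arrays lay under their mean. Without vehicle home cage replicate 1, the array at 9.43, that difference was -0.15. Averaged over home cage and RPC rats, a contrast also chosen after the data had been seen, the drug difference passed in none of 15 tests by limma and 3 had an unadjusted p under 0.05. The background of adjusted calls in that contrast was 0.0907%, 0.00944% and 0.718% of probes in the regions labelled CA1, CA3 and DG.

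**Figure D4:**
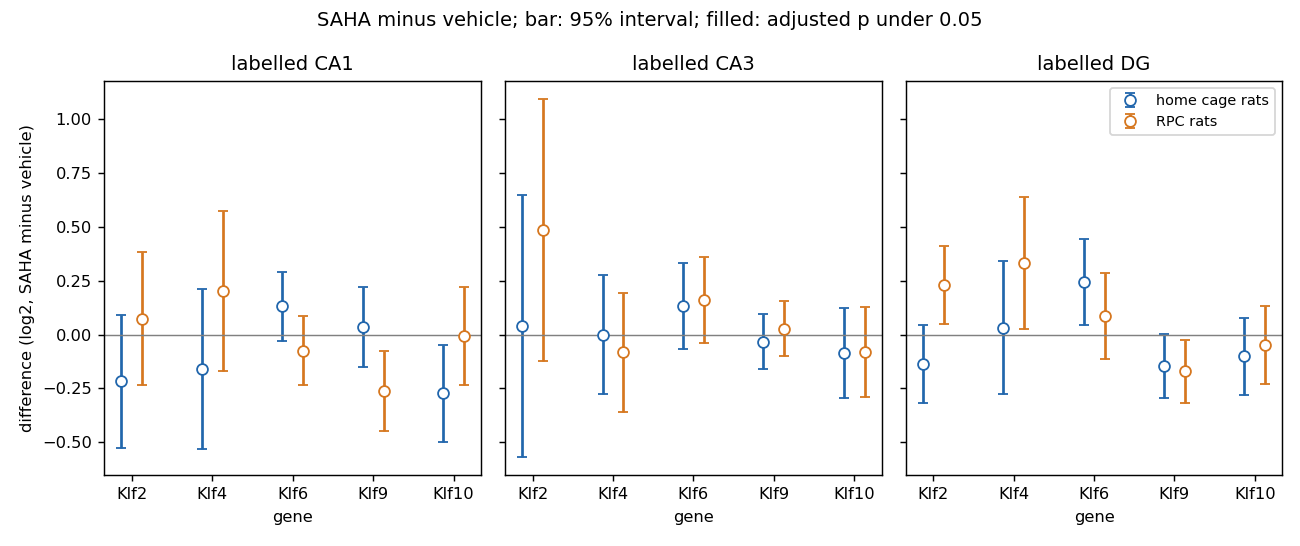
Difference SAHA minus vehicle on the log2 scale (vertical axis) for each member (horizontal axis) in the regions labelled CA1, CA3 and DG, in home cage and in RPC rats; bars give 95% intervals, and a filled point would have a limma adjusted p under 0.05. No point is filled, and the values run from -0.27 (Klf10 in labelled CA1) to 0.48 (Klf2 in labelled CA3).

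The interaction tested whether the maze difference was larger with SAHA than with vehicle. It passed for none of 15 member tests by limma, beside 0.0101%, 0% and 0.00921% of all probes in the regions labelled CA1, CA3 and DG. An unadjusted p under 0.05 was held by 2 of the 15, beside 829 of 9919, 232 of 10594 and 232 of 10858 probes. The smallest p among the members was that of Klf2 in labelled DG, whose maze rise was larger with SAHA by 0.36 ± 0.12 (unadjusted p = 0.00612, adjusted p = 0.999). For Klf4 in labelled DG it was larger by 0.30 ± 0.21 (adjusted p = 0.999). Klf9 in labelled CA1 had the reverse sign, -0.29 ± 0.13 (unadjusted p = 0.0283, adjusted p = 0.587). The calls of Klf2 in labelled CA1 and Klf4 in labelled DG with SAHA and their misses with vehicle are thus not shown to differ between the injections. The comparisons with SAHA and with vehicle in a region share the estimate of the spread, and those that use the same group share its arrays.

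The third question was how the levels differed between the labelled regions, each averaged over its 4 groups of 7 arrays. Of 15 tests, 10 were called, beside 72.4% of all probes for labelled CA1 against labelled DG, 80.7% for labelled CA3 against labelled CA1 and 75.4% for labelled CA3 against labelled DG. The members' share is close to that of all probes. Median scaling moved the median of all probes to -0.19, 0.38 and 0.20 in these comparisons. It also moved the share of higher calls over all probes from 50.2%, 50.6% and 52.2% to 24.4%, 78.8% and 68.9%, and the authors' z-scores moved the first to 39.5%.

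Klf4 was lower in labelled CA1 than in either other region. It averaged 7.73 ± 0.42 (SD, n = 28) in labelled CA1, from 7.22 to 8.73, 8.57 ± 0.38 in labelled CA3, from 7.84 to 9.30, and 8.58 ± 0.46 in labelled DG, from 7.68 to 9.68. Labelled CA1 lay below labelled DG (-0.85 ± 0.08, adjusted p = 1.42e-15) and below labelled CA3, which was higher by 0.84 ± 0.08 (adjusted p = 1.5e-15). Labelled CA3 and labelled DG did not differ beyond their spread (-0.01 ± 0.08, adjusted p = 0.92). Both called differences kept direction and call under every alternative tried.

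Klf6 was highest in labelled DG at 9.22 ± 0.21, against 8.99 ± 0.18 in labelled CA3 and 8.95 ± 0.15 in labelled CA1. Labelled CA1 lay under labelled DG by -0.27 ± 0.05 (adjusted p = 3.42e-07). Labelled CA3 lay under it by -0.22 ± 0.05 (adjusted p = 1.04e-05), but with median scaling it stood above by 0.026. The 2 lower regions did not differ beyond their spread (0.04 ± 0.05).

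Klf10 was highest in labelled CA3 at 8.63 ± 0.18, then labelled CA1 at 8.51 ± 0.22 and labelled DG at 8.31 ± 0.16. All 3 differences were called, with labelled CA3 above labelled DG by 0.32 ± 0.05 (adjusted p = 3.55e-08) and above labelled CA1 by 0.12 ± 0.05 (adjusted p = 0.0307). The difference between labelled CA1 and labelled DG, 0.20 ± 0.05 (adjusted p = 0.000211), turned to -0.085 with median scaling and to -0.0064 on the z-scores. That between labelled CA3 and labelled CA1 turned to -0.036 on the vehicle home cage arrays alone.

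Klf9 was lowest in labelled CA3 at 12.69 ± 0.11, against 12.83 ± 0.17 in labelled DG and 12.90 ± 0.20 in labelled CA1. Labelled CA3 lay under labelled CA1 by -0.21 ± 0.04 (adjusted p = 1.05e-06) and under labelled DG by -0.14 ± 0.04 (adjusted p = 0.000699). With median scaling both turned, to 0.34 and 0.37, so the place of labelled CA3 in the order of Klf9 depends on the scaling. Klf2 averaged 8.50 ± 0.41 in labelled CA1, 8.42 ± 0.40 in labelled DG and 8.21 ± 0.57 in labelled CA3. The values of labelled CA3 include the array at 5.75 where Klf2 was not detected. Labelled CA3 was below labelled CA1 by -0.29 ± 0.10 (adjusted p = 0.00794), and with median scaling it stood above by 0.13. This Klf2 difference was called in 5 of 8 alternative settings. Neighbours in the order of Klf2 did not differ beyond their spread.

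**Figure D5:**
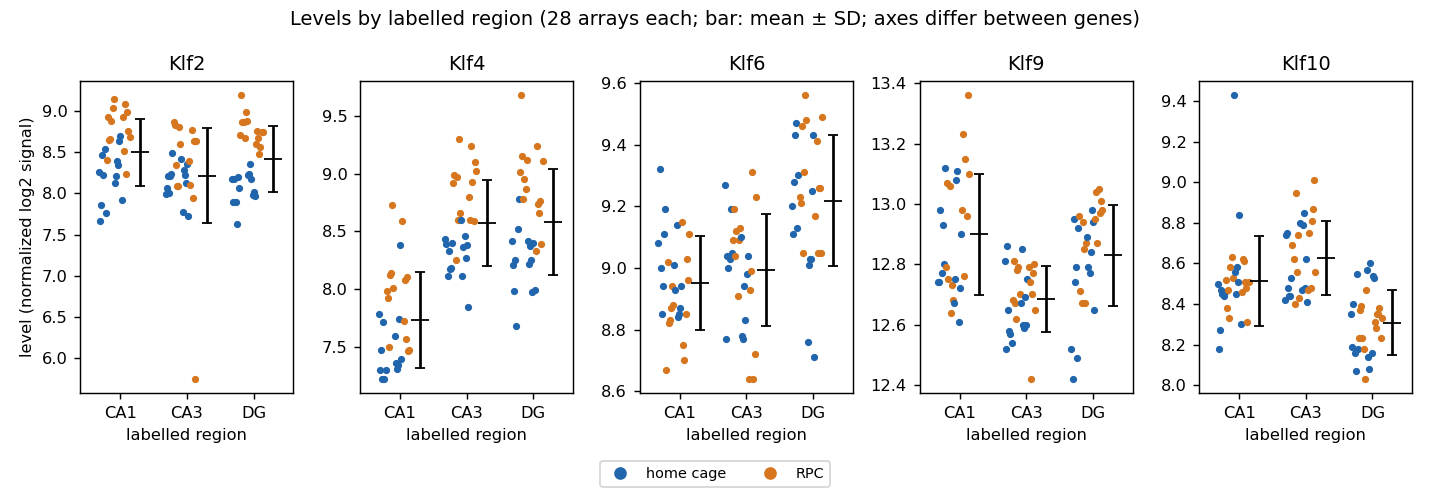
Normalized log2 level of each member (vertical axes, which differ between genes) in the regions labelled CA1, CA3 and DG (horizontal axes), with home cage and RPC arrays in different colours and the mean ± SD of 28 arrays as bars. Klf4 averages 7.73 in labelled CA1 and 8.57 and 8.58 in the other regions.

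Over the 84 arrays, after the mean of each region was taken off, the genes whose levels ran most like each member's were read as a description. The arrays share groups and quality, and 3 regions come from each rat. Per1, a clock gene that is also induced by glucocorticoids and by neuronal activity, ran most like Klf2 (Pearson r = 0.77, and 0.76 over the 74 arrays without poor correlation). Zfand3 and Ntmt1 followed at 0.76 and 0.75, which fell to 0.62 and 0.60 without those arrays. Gata2, Ier2 and Plat ran most like Klf4 (r = 0.75, 0.75 and 0.74). Ier2 is an immediate early gene, Gata2 a transcription factor of blood and endothelial cells, and Plat the tissue plasminogen activator.

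The genes most like Klf9 were the potassium channel gene Kcnd2 (0.73), Klf13 (0.71) and Mtdh (0.71). For Klf6 they were Kcnmb4, Gamt and Ptges2 (0.61, 0.57 and 0.56), and for Klf10 Stx1a, Aar2 and Car5b (0.59, 0.59 and 0.57). Among the members themselves, Klf2 and Klf4 had r = 0.50, and 0.74 without the 10 poorly correlated arrays. The other 9 pairs lay between -0.24 and 0.23.

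The rest of the family was read next. Of 12 other Kruppel-like factors listed, 9 had a probe and 4 were tested in each region (Klf5, Klf7, Klf13 and Klf15). Klf1, Klf11, Klf12 and Klf14 were detected on none of the 84 arrays, and Klf3 on at most 2 arrays of a region. The maze comparison called 1 of 4 in labelled CA1 with vehicle (where the median difference of the 4 genes was 0.39 and that of all probes -0.02) and 1 of 4 in labelled DG with SAHA (medians 0.01 and -0.01). Both calls were Klf13, an activator and repressor of the same zinc finger type, which was higher by 0.65 ± 0.11 (adjusted p = 0.00147) and 0.40 ± 0.10 (adjusted p = 0.0293). The related Sp factors had 6 probes, each detected on at most 2 arrays of a region, and were not tested.

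Among 6 tested corepressors and coactivators of these factors, 1 was called in each maze comparison of labelled CA1. Ctbp1, a corepressor, was higher with vehicle (0.20 ± 0.05, adjusted p = 0.0164), and Hdac2, a histone deacetylase, with SAHA (0.29 ± 0.07, adjusted p = 0.0305). Median scaling ended both calls (adjusted p = 0.0717 and 0.107). In the other regions none of the 6 was called, and the median difference of the list ran from -0.04 to 0.07. Among the genes upstream of Klf2 and Klf4 (ERK5 kinases and MEF2 factors), 4 or 5 of 12 were tested in a region. None was called by limma in a maze comparison, and their medians ran from -0.10 to 0.14. Of the endothelial target genes of Klf2 and Klf4, 8 to 10 of 18 were tested. None was called by limma in a maze comparison, with medians from -0.01 to 0.14. Tie1, a receptor of endothelial cells on that list, was higher with SAHA in RPC rats of labelled DG (0.40 ± 0.08, adjusted p = 0.0336), a call that ended with median scaling (adjusted p = 0.31).

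Immediate early genes were called most often of the lists. With vehicle, 8 of 15 tested were higher and 1 (Jun) lower in labelled CA1, 2 of 16 were higher under the label CA3 and 11 of 16 under DG. With SAHA, 9 of 15, 2 of 16 and 14 of 16 were higher. The medians of the list ran from 0.38 to 0.63, against -0.02 to 0.04 for all probes. Fos was higher with vehicle by 1.11 ± 0.16 under the label CA1 and 1.35 ± 0.17 under DG. With SAHA it was higher by 0.80 ± 0.16 and 1.14 ± 0.17 in the same regions. Dusp1, a phosphatase that turns MAP kinases off, was higher with SAHA by 1.23 ± 0.15 and 1.10 ± 0.12 there. With vehicle Dusp1 was called under the label CA1 (0.54 ± 0.15). No gene of the list was called by limma for the interaction of drug and behaviour in any region. Jun was lower in labelled CA1 with vehicle (-0.42 ± 0.06, adjusted p = 0.000372), and the call ended with median scaling (adjusted p = 0.059). Of the 47 calls of this list, 39 held with median scaling and 44 on the z-scores, and all 47 kept their direction. Per1, which is also on the list of glucocorticoid and thyroid hormone genes, rose in labelled DG by 0.38 ± 0.07 with vehicle (adjusted p = 0.00434) and 0.48 ± 0.07 with SAHA (adjusted p = 0.000118). With median scaling the vehicle call ended (adjusted p = 0.324).

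Of that hormone list, 12 to 14 of 18 genes were tested and 0 to 2 were higher in a maze comparison. These were Per1, Sgk1 in labelled CA1 with vehicle (0.26 ± 0.08, adjusted p = 0.0392, and 0.225 with median scaling), Errfi1 in labelled CA1 with SAHA (0.40 ± 0.09, adjusted p = 0.0177) and Mt1 in labelled DG with SAHA (0.46 ± 0.10, adjusted p = 0.013). Of the TGF-beta list, 9 or 10 of 16 genes were tested, and Id1, an inhibitor of differentiation, was called in labelled CA1 and labelled DG under both injections. Its rise was 0.68 ± 0.11 and 0.64 ± 0.09 with vehicle and 0.51 ± 0.11 and 0.60 ± 0.09 with SAHA. Of the pluripotency partners of Klf4, 2 of 6 were tested. Sox2, a factor of neural stem cells and astrocytes, was higher in labelled CA1 with vehicle (0.47 ± 0.12, adjusted p = 0.0218) and in labelled DG with SAHA (0.49 ± 0.10, adjusted p = 0.0068).

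Markers of the cells in which Klf2 and Klf4 are best known were set beside their rise. Of 12 endothelial markers, 7 had a probe, and 4 or 5 were tested in a region. None was called by limma in any of the 6 maze comparisons, with medians from 0.00 to 0.11. In labelled DG the summed level of 5 endothelial markers ran from 5443 to 7076 in SAHA home cage rats and from 5779 to 6612 in SAHA RPC rats, where Klf2 and Klf4 rose. With vehicle it ran from 6141 to 7332 and from 5644 to 7588. At least 4 of the 5 were detected on each of these arrays, and the groups overlapped under both injections. In labelled CA1 with SAHA, where Klf2 rose, the sum of 4 endothelial markers ran from 3360 to 3977 (median 3552) in the home cage and from 3696 to 4213 (median 3936) after the session. These groups overlapped, and all 4 were detected on each array. The endothelial sums add levels on the linear scale, and most of each is 1 gene, Cldn5, a tight junction gene of endothelial cells. Its log2 level averaged 12.17 in labelled DG and 11.50 in labelled CA1. Cldn5 was lower with SAHA in RPC rats of labelled CA1 (-0.36 ± 0.07, adjusted p = 0.0369), and median scaling ended that call (adjusted p = 0.21). Of pericyte and smooth muscle markers, 3 or 4 were tested and none was called by limma in a maze comparison. Their median difference was 0.22 in labelled CA1 with SAHA, where their sum ran from 664 to 850 in the home cage and from 711 to 1056 after the session, and -0.10 in labelled DG with SAHA.

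In labelled DG with SAHA, 2 of 7 microglia markers were higher after the session: C1qc by 0.27 ± 0.06 (adjusted p = 0.0102) and C1qb by 0.21 ± 0.05 (adjusted p = 0.0299). The summed level of the 7 ran from 6804 to 7843 in the home cage and from 7689 to 8663 after the session, and all 7 were detected on every one of these arrays. With median scaling neither was called (adjusted p = 0.0871 and 0.176). In labelled CA1 with vehicle, 2 of 7 astrocyte markers were higher, Slc4a4 (0.64 ± 0.14, adjusted p = 0.0098) and Gja1 (0.20 ± 0.06, adjusted p = 0.0298, and 0.373 with median scaling). In that region and injection no member was called. The part of these cells in the rise of Klf2 and Klf4 was not tested. Markers of oligodendrocytes, choroid plexus, interneurons, CA1, CA3 and dentate neurons had no call in a maze comparison by limma.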

How the data were processed

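Per the labels' protocols, 0.5 µg of total RNA from each microdissected piece was amplified and biotin-labelled for Illumina bead arrays. GenomeStudio 2011.1 is named in the submitters' processing notes. The authors deposited the signal (intensity) of 22523 probes on a linear scale, and per the file headers a detection p-value for each. A value of 0.01 in the deposited detection p-values stood for 0 (29.8% of entries, while the smallest other value was 0.0012). The authors' deposited normalized table holds a score, the z-score of the log10 signal within an array.

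Background was corrected from the deposited signal by normexp (limma 3.58.1, run in R 4.3.3 with the package data.table, release 1.17.8) with an offset of 16, and log2 values were quantile normalized over 84 arrays. Quantile normalization removes a shift shared by most probes, while the offset makes the differences of dim probes smaller. Probes entered the test of a region when 7 or more of its 28 arrays had a detection p-value below 0.01. Each region had 1 limma fit of its 4 groups (lmFit, eBayes with a trend, 24 residual degrees of freedom). A fit over 84 arrays gave region differences and F tests. P-values were adjusted by Benjamini-Hochberg over all probes of a contrast, and called under 0.05. The 7 rats per group limit the precision. Where a gene had several tested probes, the brightest was read. The fits were also run on simulated data with independent normal noise. These held no poorly correlated arrays, so that run says nothing about such arrays.

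Members, gene lists, named genes and tests were chosen with earlier results of these data known. The rule named all members, list genes called in a contrast (at most 4 per list and contrast) and the 3 genes most like each member. The alternatives were no background correction, median scaling, the z-scores, an offset of 50, other filters, array weights, blocks, and fits without single or poorly correlated arrays (over 5 median absolute deviations under the median of their region).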

Additional observations from a re-analysis of the deposited data

Results flagged for a closer look

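Of the 60 combinations of a member and a group of 7 arrays, 4 held an array that stood apart from the other 6, and chance flags about 1 in 20 such groups. The measure is the gap to the nearest array divided by the group's whole range. Klf2 in vehicle RPC replicate 6 of labelled CA3 had a ratio of 0.724, at a log2 level of 5.75 against 7.94 to 8.77 on the other arrays. Klf4 in vehicle home cage replicate 6 of labelled CA1 had a ratio of 0.594, at 8.38 against 7.31 to 7.74. Klf4 in SAHA RPC replicate 2 of labelled DG had a ratio of 0.587, at 9.68 against 8.78 to 9.15. Klf9 in vehicle RPC replicate 3 of labelled CA3 had a ratio of 0.585, at 12.42 against 12.65 to 12.80. All but SAHA RPC replicate 2 of labelled DG are among the 10 arrays that correlated poorly with their region. Leaving out SAHA RPC replicate 2 kept Klf4 called in labelled DG.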

How the results depend on the processing

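Of 892 values of a member under another setting, 858 kept their direction and side of the threshold, or were uncalled in both (38 of the uncalled changed sign). Array weights gave 3 maze calls with vehicle against 1, 6 with SAHA against 3, and 1 F test among regions against 0 (Klf9, SAHA against vehicle in RPC rats, adjusted p = 0.0439). Leaving out each array in turn gave 1 to 2 calls with vehicle, 3 to 4 with SAHA and 0 for the drug comparisons and the interaction. Among the alternatives, Klf6 in labelled CA1 with SAHA (lower) and Klf9 in labelled CA1 with vehicle (higher) were each called in 1 of 9 settings. Their smallest limma adjusted p-values were 0.0293 and 0.0388. The maze contrast averaged over drugs gave 5 calls. On vehicle home cage arrays alone, 4 region differences were called against 10. The share of all probes called with array weights or on those arrays is not given here, so these counts have no background beside them. Region differences that turned were, with median scaling, Klf10 between labelled CA1 and DG (-0.085), Klf9 between CA3 and CA1 (0.34) and between CA3 and DG (0.37), Klf2 between CA3 and CA1 (0.13) and Klf6 between CA3 and DG (0.026). Klf10 between labelled CA1 and DG also turned with the z-scores (-0.0064), and Klf10 between CA3 and CA1 on vehicle home cage arrays (-0.036). The cause was not tested.

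Same-numbered arrays of 2 groups in a region correlated at 0.01 on average (from -0.59 to 0.85), and 42 of 126 pairs were over 0.1. Differently numbered arrays were not compared, so these values cannot decide whether replicate numbers pair arrays. With the number as a replicate block, Klf4 in labelled CA1 with SAHA also passed (adjusted p = 0.043), so 4 calls stood against 3. The labels do not say whether a number marks 1 rat across regions, and same-numbered arrays of 2 regions correlated at -0.0096 on average (22 of 84 pairs over 0.1). A single fit of 84 arrays with the number taken as the rat for a replicate block (correlation -0.01) also called Klf4 in labelled CA3 with vehicle (adjusted p = 0.00847) and in labelled CA1 with SAHA (0.0303). There Klf2 missed in labelled DG with vehicle (adjusted p = 0.9999) and in labelled CA1 with SAHA (0.0642). The regions share 1 spread in that fit, and it takes in vehicle RPC replicate 6 of labelled CA3. Klf2 had an SD of 1.05 in the group of that array, against 0.11 to 0.21 in the groups of labelled DG. The cause of these misses was not tested.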
